A study of Homo sapiens with 2 samples.

Results

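The genes described here build and anchor the actin cytoskeleton: 33 genes named by symbol, all found among the 36601 genes of each library. They were grouped by role into nonmuscle actins and monomer-binding proteins, contractile and smooth-muscle type genes, nonmuscle myosin, other tropomyosins, calponins and transgelins, crosslinkers, focal adhesion genes, and annexin, S100, caveolin and galectin genes. The series concerns chemicals that provoke stress pathways in cultured hepatic cells, and the libraries used here are its vehicle cultures, so no treatment comparison was made. HepaRG is an established human hepatic line, bought here as terminally differentiated cells and plated on rat tail collagen. Both libraries come from cultures grown for 7 days and then given 0.1% DMSO for 24 h, and dissociation was done with actinomycin D and anisomycin, which block transcription and translation. About 10000 cells were loaded per library on a droplet kit that counts the 3′ ends of transcripts as unique molecules (UMIs). The labels give both libraries 1 biological replicate number. The p-values below set differences between cell groups against the spread left between the sums of these libraries, which may be technical. That spread was largely shared between genes in the fit, so the p-values say nothing of the spread between independent cultures.

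Cells of each library were divided by the level of marker transcripts and not by any of the 33 genes. ALB-high cells had at least 50 albumin (ALB) UMIs per 10000 and numbered 306 in replicate 1 and 407 in replicate 2. ALB-intermediate cells had 5 to under 50 and numbered 424 and 493. Mesenchymal-like cells were in the top 20% of their library by the mean ln(1 + UMIs per 10000) of COL3A1, SPARC, LUM and PDGFRB and in neither ALB group, and numbered 864 and 930. The remaining 2856 and 3064 cells formed the largest group. These are ranges cut from continuous levels: 131 and 138 cells lay between 5 and 10 ALB UMIs per 10000, and 102 and 150 cells between 50 and 100.

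Actin monomers assemble into filaments that tropomyosins coat, alpha-actinins and filamins cross-link, and nonmuscle myosin pulls. The filaments end at focal adhesions, where integrins hold the extracellular matrix outside the cell and talin, vinculin and zyxin link them to actin inside it. Many of these genes are known targets of serum response factor (SRF), which binds the CArG box and whose MRTF partners are released when free actin monomers run low; the TEAD partners of YAP are another known input. In liver, hepatocytes in intact tissue keep most actin under the bile canaliculus, and cultured hepatic cells that flatten and spread on plastic are known to raise cytoskeletal transcripts.

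The promoters of the genes were searched for the motifs of these factors. RefSeq windows (build GRCh38.p14) from 250 bases before to 50 after a transcript start were found for 29 of the 33 genes. ACTB, LGALS1, MYL9 and TAGLN had no entry. A CArG box on either strand was found in 5 of the 29 genes (17.2%), against 438 of all 27305 genes with a window (1.60%). The 5 matches are shown because they mark the genes of the set with this motif near the start, with the box in capitals and 25 bases on each side, 5′ to 3′ on the gene's strand, in windows of 60 bases whose positions follow them:
ACTN1: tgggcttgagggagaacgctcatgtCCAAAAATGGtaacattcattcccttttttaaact
ACTG1: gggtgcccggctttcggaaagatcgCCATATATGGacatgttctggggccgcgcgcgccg
CNN2: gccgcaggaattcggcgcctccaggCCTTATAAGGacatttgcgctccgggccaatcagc
TPM4: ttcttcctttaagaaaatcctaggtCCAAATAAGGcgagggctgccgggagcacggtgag
FLNA: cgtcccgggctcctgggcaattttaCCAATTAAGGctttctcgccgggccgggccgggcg
The ACTN1 box lay 171 bases before the start, in the window chr14:68977703-68977762 (minus strand), inside the ACTN1 gene but in no exon of GENCODE 29. The ACTG1 box lay 94 bases before it, in chr17:81512859-81512918 (minus strand), which overlaps an annotated ACTG1 exon. The CNN2 box lay 89 bases before it, in chr19:1026494-1026553 (plus strand), outside any annotated gene. The TPM4 box lay 173 bases before it, in chr19:16067340-16067399 (plus strand), inside TPM4 but in no exon. The FLNA box lay 94 bases before it, in chrX:154374694-154374753 (minus strand), over an exon of AC245140.3 on the opposite strand. The TEAD motif GGAATG, on either strand, was in 9 of the 29 genes (31.0%) against 16.7% of all genes with a window, and the AP-1 motif TGANTCA, which reads as the same motif on both strands, was in 4 (13.8%) against 9.37%. A gene can have several windows, and the 29 genes have 51 windows, against 35116 over all 27305 genes, so a gene of the set has more windows in which a motif can occur. Per window, the CArG box was in 9.80% of those of the set and 1.29% of all, the TEAD motif in 19.6% and 14.03%, and the AP-1 motif in 9.80% and 7.71%. No overlap between motifs was removed. A match is a run of letters and says nothing of whether a factor binds there.

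Replicate 1 was the deeper library, with 85475317 UMIs in 4591 barcodes against 57246647 UMIs in 4998 barcodes for replicate 2. Filtering left 4450 and 4894 cells. The libraries shared 10 barcodes, 7 of them among kept cells. Median depth was 20653 and 12441 UMIs per cell in ALB-high cells, 18426 and 11074 in ALB-intermediate cells, 15599 and 9766 in mesenchymal-like cells and 17783 and 10311 in remaining cells. The median mitochondrial share was 13.5 and 13.6% in ALB-high cells, 11.1 and 11.7% in ALB-intermediate cells, 8.24 and 8.36% in mesenchymal-like cells and 8.52 and 8.68% in remaining cells. Of 10 hepatocyte markers other than ALB, 9 could be tested and all 9 were higher in ALB-high than in remaining cells by the test described below, with transferrin (TF) at 1136 and 1049 CPM (UMIs per 1e6 UMIs of the group) in ALB-high cells and 3.29 and 4.00 CPM in remaining cells. Of 5 mesenchymal markers the rule did not use, the 3 that could be tested were higher in mesenchymal-like cells. Decorin (DCN) stood at 128 and 129.8 CPM there, against 33.3 and 34.2 CPM in remaining cells, COL1A1 at 14.4 and 8.44 CPM against 6.46 and 6.11 CPM, and PDGFRA at 1.64 and 1.63 CPM against 0.514 and 0.657 CPM. THY1 had 0 UMIs in mesenchymal-like cells, and COL1A2 had 0 and 0.305 CPM. Of 5 endothelial markers 2 were tested, and both were also higher in mesenchymal-like cells. PECAM1 stood at 10.7 and 9.66 CPM, against 3.09 and 2.83 CPM in remaining cells, and KDR at 33.2 and 33.2 CPM, against 22.9 and 21.5 CPM. VWF, CDH5 and CLDN5 were at most at 0.205 CPM in mesenchymal-like cells. Of 6 biliary markers 4 were tested, and 1 was higher in mesenchymal-like cells and 0 lower, with a median log2 fold change of -0.01. The higher one was the keratin KRT19, at 950.1 and 932 CPM, against 624 and 634 CPM in remaining cells. Summed smooth muscle markers were at 13.04 and 12.7 CPM in ALB-high cells and 16.0 and 14.5 in ALB-intermediate cells. They were at 22.0 and 23.9 in mesenchymal-like cells and 23.9 and 23.3 in remaining cells. Of 4 tested, 1 was higher and 1 lower in mesenchymal-like than in remaining cells. The largest part of the sum was SMTN, at 15.1 and 15.3 CPM against 19.5 and 18.9 CPM. The other direction was seen for DES, at 3.08 and 3.25 CPM against 0.845 and 0.942 CPM, and MYH11, at 2.94 and 3.56 against 2.44 and 2.54.

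The 33 genes together were scarcest in ALB-high cells and most abundant in mesenchymal-like cells. They summed to 7995 and 8987 CPM in ALB-high cells (replicates 1 and 2), 12161 and 12712 CPM in ALB-intermediate cells, 21307 and 20984 CPM in mesenchymal-like cells and 19179 and 19389 CPM in remaining cells. No groups overlapped. With mitochondrial UMIs left out of the total the means over libraries were 9802, 14026, 23059 and 21110 CPM in the same order of groups. Single cells spread widely around these values. In replicate 1 the sum per 10000 UMIs ran from 46.5 at the 10th percentile to 126 at the 90th in ALB-high cells, with a median of 70.8, and from 115 to 260.3 in remaining cells, with a median of 191. In replicate 2 the medians were 79.4, 119, 210.4 and 194 in ALB-high, ALB-intermediate, mesenchymal-like and remaining cells. The 90th percentile of ALB-high cells therefore lay just above the 10th percentile of remaining cells in both libraries.

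Counted levels differed widely between genes of the same machinery. CPM from 3′ counting was read without a length correction. How reads in introns were counted is not given in the sources used here. Some marker genes were hardly counted beside related ones, as UBE2C beside TOP2A over all cells and APOA2 beside APOA1 in ALB-high cells. Whether such gaps lie in the transcripts or in the counting was not tested. Ranks and family shares therefore describe counted UMIs and not transcript abundance. ACTB ranked 13th of all genes in replicate 1 and 14th in replicate 2 over all cells, and ACTG1, ANXA2, S100A10 and CAV1 were each in the top 110 in both. At the other end, ACTA2 ranked 3762nd and 3615th, TAGLN 10611th and 10157th, CNN1 11488th and 11503rd, TPM2 12622nd and 12365th. MYL9, the smooth muscle myosin regulatory light chain, had 10 UMIs in all cells of both libraries together, 6 in replicate 1 and 4 in replicate 2, and was too low to test. By counted UMIs the smooth-muscle type genes thus split into CALD1 and TPM1, over 200 CPM in each group and library, and 4 genes under 80 CPM in each, besides MYL9.

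**Figure D1:**
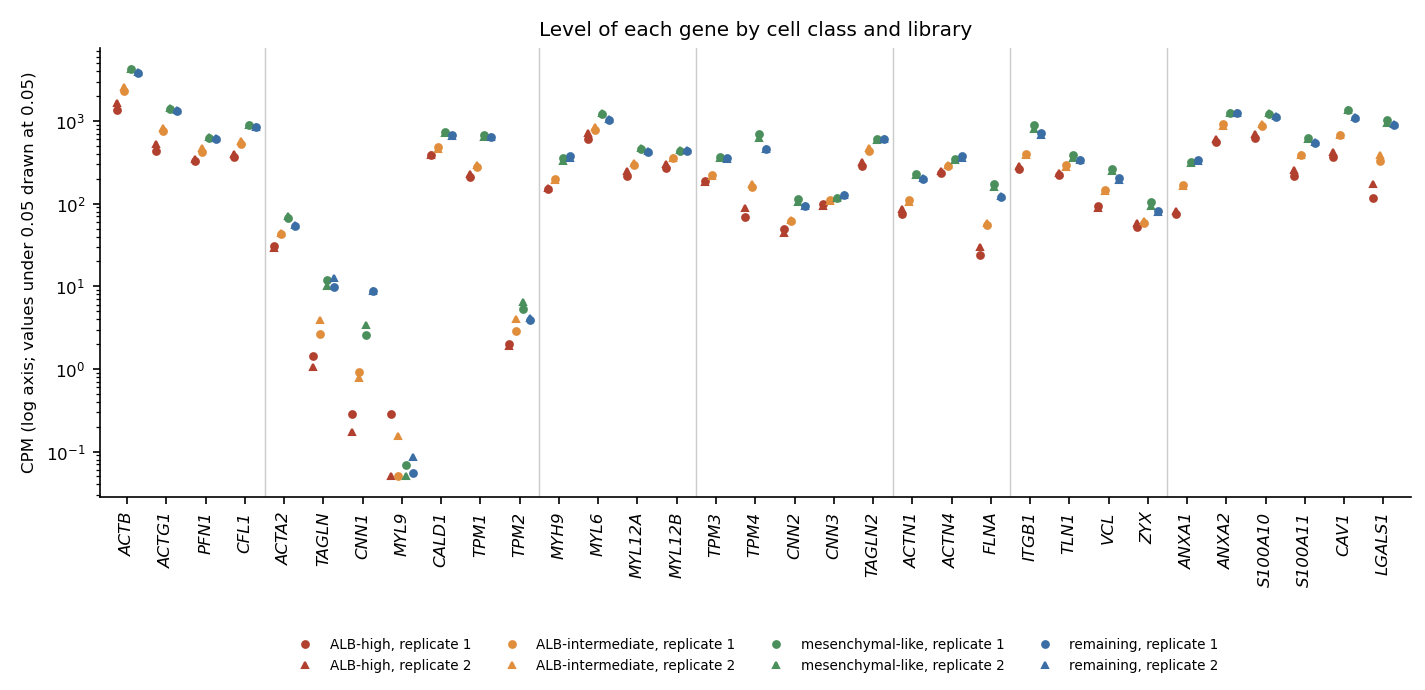
Level of each of the 33 genes in CPM on a log axis, by cell group (colour) and library (circle, replicate 1; triangle, replicate 2), with genes ordered by role and thin lines between roles. ALB-high points lie lowest for every gene but MYL9, mesenchymal-like points lie at or above remaining points for most, and CNN1 runs against that order, at 2.60 and 3.36 CPM in mesenchymal-like cells and 8.85 and 8.82 CPM in remaining cells.

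Tested gene by gene with edgeR's quasi-likelihood test on UMIs summed per group and library, 32 of the 33 genes passed the filter on low counts, and MYL9 did not. In ALB-high against remaining cells, 32 of 32 were lower and 0 higher (30.3% of all genes were higher) at an adjusted p below 0.05 (Benjamini-Hochberg over all genes tested). Of all 16578 genes tested, 29.4% were lower, so the members' count lay above that share. With DESeq2 31 were lower and 0 higher, against 19.1% and 19.7% of all genes, and 0 were higher with edgeR at an unadjusted p below 0.05. At least 2-fold lower were 14 of 32, against 7.47% of all genes. The median log2 fold change was -0.97 over the 32 genes and 0.00 over all genes tested. These fold changes are scaled by TMM; in plain CPM the median of all genes tested was itself shifted by -0.15 in both libraries, which the scaling takes out. Each SE was derived from the log2 fold change and its F statistic, and understates the error of genes with hardly any UMIs.

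In ALB-intermediate against remaining cells, 31 of 32 genes were lower, against 21.2% of all genes, and 0 were higher, against 21.2%, also with DESeq2 or at an unadjusted p below 0.05. TPM2 was the exception, at -0.20 ± 0.22 (SE), adjusted p = 0.502. The median log2 fold change was -0.50 over the genes and -0.01 over all genes tested, and 6 of 32 were at least 2-fold lower, against 2.69% of all genes. In mesenchymal-like against remaining cells, 15 were higher, against 12.7% of all genes, 3 were lower, against 13.6%, and 14 passed in neither direction. CNN1 was the 1 gene at least 2-fold lower, against 1.34% of all genes. The median was 0.10 over the genes and -0.01 over all genes tested. In ALB-high against mesenchymal-like cells, 31 of 32 were lower, against 28.9% of all genes, and 0 higher, against 29.6%, also with DESeq2 or at an unadjusted p below 0.05, with a median of -1.05, and 18 were at least 2-fold lower, against 9.42%. CNN3 was the exception there, at -0.10 ± 0.05 (SE), adjusted p = 0.102. Comparisons with remaining cells share the same sums of those cells, so their values are set side by side without a test between them.

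The higher calls in mesenchymal-like cells were small and less firm than the lower calls in ALB-high cells. DESeq2 called 8 of the genes higher there (ACTA2, MYL6, TPM4, FLNA, ITGB1, VCL, ZYX and CAV1) and 1 lower (CNN1), against 4.49% and 3.88% of all genes it tested. Proliferation markers moved with this comparison: summed over 11 genes they were at 869 and 821 CPM in ALB-high cells, 1580.0 and 1466 in ALB-intermediate cells, 1947 and 2065 in mesenchymal-like cells and 2235 and 2244 in remaining cells. With cells at 10 or more proliferation UMIs per 10000 left out, a limit chosen after seeing the data, 17 genes were higher and 0 lower in mesenchymal-like cells, against 9.24% and 7.84% of all genes. With the same limit 31 were lower in ALB-high cells, against 25.2% of all genes, and 28 in ALB-intermediate cells, against 12.0%. With a limit of 3 and 31 genes tested, 19 were higher and 0 lower in mesenchymal-like cells, against 5.30% and 4.12% of all genes. In ALB-high cells 30 were lower, against 19.5%, and in ALB-intermediate cells 24, against 6.48%. This limit took out 85.2 and 85.7% of remaining cells and 77.2 and 79.8% of mesenchymal-like cells. It took out 71.2 and 73.0% of ALB-intermediate and 43.5 and 46.4% of ALB-high cells. Only 423 and 437 remaining cells were left. Cells it took out are called dividing below, a name for the limit only, and whether they divide was not tested.

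**Figure D2:**
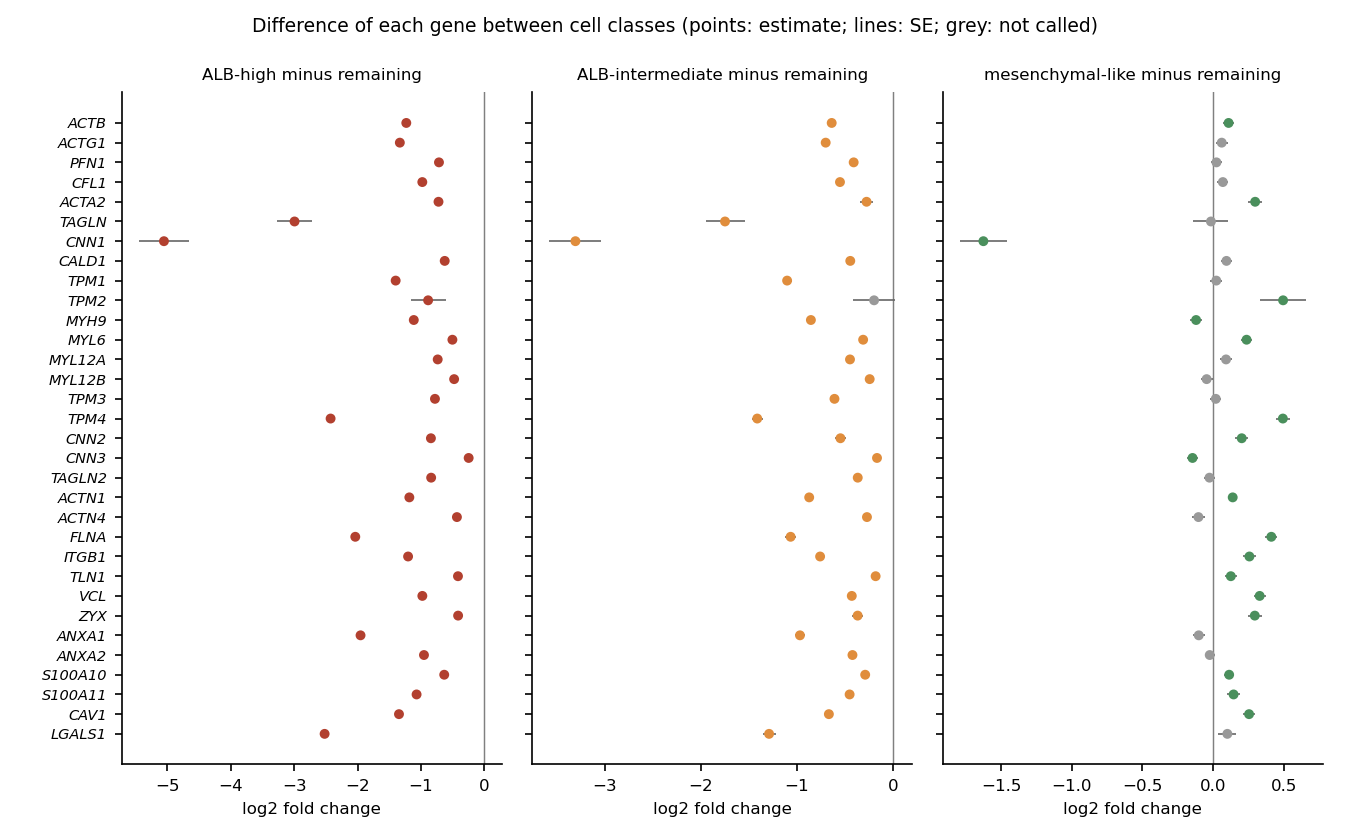
Log2 fold change of each tested gene (points; lines, SE) in ALB-high, ALB-intermediate and mesenchymal-like cells, each against remaining cells, with grey points for genes that were not called; the 3 horizontal axes differ in scale. All 32 points are left of 0 in ALB-high cells, while in mesenchymal-like cells 15 called points are right of 0 and CNN1, CNN3 and MYH9 are left of it; the ALB-high point of CNN1 rests on 3 UMIs and is not a bound.

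Beta-actin and gamma-actin, the nonmuscle actins that make up most filaments of these cells, followed the whole set. ACTB (chr7:5527147-5563784) stood at 1370.1 and 1644 CPM in ALB-high cells, 2295 and 2564 CPM in ALB-intermediate cells, 4284 and 4307 CPM in mesenchymal-like cells and 3864 and 3958 CPM in remaining cells, which averaged 1507 ± 194 CPM in ALB-high cells, 2429.5 ± 191 in ALB-intermediate cells, 4295 ± 16.0 in mesenchymal-like cells and 3911 ± 66.5 in remaining cells (SD, n = 2 libraries). ALB-high and remaining cells did not overlap, and the log2 fold change was -1.23 ± 0.04 (SE), adjusted p = 2.67e-23 by edgeR, a level 2.35-fold lower. In ALB-intermediate cells ACTB was lower by less, at -0.64 ± 0.04 (SE), adjusted p = 3.15e-15. Against mesenchymal-like cells, ALB-high cells differed by -1.34 ± 0.04 (SE), adjusted p = 3.55e-24. The slightly higher ACTB of mesenchymal-like cells against remaining cells, 0.11 ± 0.04 (SE), adjusted p = 0.031, was not called by DESeq2, which gave an adjusted p of 0.323. ACTB and ACTG1 have many processed copies in the genome, and how reads matching several places were counted is not given in the sources used here.

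ACTG1 (chr17:81509971-81523847) stood at 430.3 and 525 CPM in ALB-high cells, 762 and 817 CPM in ALB-intermediate cells, 1399.5 and 1422 CPM in mesenchymal-like cells and 1309.8 and 1348 CPM in remaining cells. ALB-high libraries were again lowest, and no groups overlapped. Its difference was -1.33 ± 0.04 (SE), adjusted p = 7.39e-23 in ALB-high cells and -0.70 ± 0.04 (SE), adjusted p = 3.32e-15 in ALB-intermediate cells, each against remaining cells, and -1.39 ± 0.04 (SE), adjusted p = 3.05e-23 in ALB-high against mesenchymal-like cells. ACTG1 in mesenchymal-like cells lay above remaining cells in both libraries but did not pass the test, at 0.06 ± 0.04 (SE), adjusted p = 0.304. Profilin (PFN1), which feeds monomers to growing filaments, differed by -0.72 in ALB-high cells, and cofilin (CFL1), which severs old filaments, by -0.98 (log2), and neither passed the test in mesenchymal-like cells.

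The contractile genes held both the largest and the most uncertain differences. Smooth-muscle calponin (CNN1, chr19:11538717-11550323), an actin-binding inhibitor of myosin, stood at 0.283 and 0.174 CPM in ALB-high cells, 0.916 and 0.778 CPM in ALB-intermediate cells, 2.60 and 3.36 CPM in mesenchymal-like cells and 8.85 and 8.82 CPM in remaining cells. ALB-high cells held only 3 CNN1 UMIs in both libraries together, so the ratio to remaining cells, 0.0265, has a counting interval of 0.00546 to 0.0778 (95%), and no fitted fold is given. ALB-intermediate cells held 13, a ratio of 0.0970 (0.0514 to 0.167). Against mesenchymal-like cells the ratio of ALB-high cells was 0.0807 (0.0163 to 0.246). CNN1 was the gene of the set with the widest gap between mesenchymal-like and remaining cells, and the gap ran against the rest: 71 UMIs against 791, a ratio of 0.328 (0.254 to 0.419) and -1.63 ± 0.17 (SE), adjusted p = 1.95e-09. The call was lost, at an adjusted p of 0.054 and -0.93, with the strongly proliferating cells left out. A CNN1 UMI was seen in 10.0% (95% Clopper-Pearson interval 8.94 to 11.2%) and 6.82% (95% Clopper-Pearson interval 5.95 to 7.77%) of remaining cells in replicates 1 and 2. In ALB-high cells, which had more UMIs per cell, the share was 0.654% (95% Clopper-Pearson interval 0.0793 to 2.34%) and 0.246% (95% Clopper-Pearson interval 0.00622 to 1.36%). These intervals cover counting error only. No correction was made for ambient RNA, and no group here is known to lack these genes, so shares of cells are not shares of expressing cells.

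Transgelin (TAGLN, chr11:117199321-117204782), an actin-binding smooth muscle protein, stood at 1.42 and 1.04 CPM in ALB-high cells, 2.63 and 3.89 CPM in ALB-intermediate cells, 11.8 and 10.1 CPM in mesenchymal-like cells and 9.77 and 12.8 CPM in remaining cells. It was -2.99 ± 0.28 (SE), adjusted p = 4.48e-11 in ALB-high cells and -1.75 ± 0.20 (SE), adjusted p = 1.23e-08 in ALB-intermediate cells against remaining cells, and -2.98 ± 0.30 (SE), adjusted p = 2.83e-10 in ALB-high against mesenchymal-like cells. With the proliferation limit of 3 the ALB-intermediate call was lost, at -1.41 (adjusted p = 0.0879). Mesenchymal-like and remaining cells overlapped. Only 6.58% and 6.04% of remaining cells had a TAGLN UMI, against 2.94% and 1.47% of ALB-high cells. Alpha smooth muscle actin (ACTA2, chr10:88935074-88991339), the usual marker of activated stellate cells and myofibroblasts in liver, stood at 30.6 and 28.9 CPM in ALB-high cells, 42.8 and 44.5 CPM in ALB-intermediate cells, 66.6 and 70.7 CPM in mesenchymal-like cells and 53.6 and 55.9 CPM in remaining cells. It differed by -0.72 in ALB-high cells and was higher in mesenchymal-like cells, 0.30 ± 0.05 (SE), adjusted p = 2.21e-05, a call lost with the limit of 3 (0.35, adjusted p = 0.0607). Its share of cells with a UMI differed by under 1 percentage point between these groups, which differ in depth, at 55.8% and 43.0% of mesenchymal-like cells and 56.0% and 43.0% of remaining cells. ALB-high cells, at higher depth, had it in 49.0% and 30.2%.

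Tropomyosin 1 (TPM1, chr15:63042632-63071915), whose gene makes muscle and nonmuscle isoforms that 3′ counts do not separate, stood at 209 and 231 CPM in ALB-high cells, 282 and 297 CPM in ALB-intermediate cells, 687 and 642 CPM in mesenchymal-like cells and 650.3 and 635 CPM in remaining cells. It was among the 6 largest differences in ALB-intermediate cells, -1.10 ± 0.05 (SE), adjusted p = 2.65e-19, or -0.69 (adjusted p = 1.15e-09) with the limit of 3, and differed by -1.40 in ALB-high cells, while mesenchymal-like and remaining cells did not differ by the test. TPM2, at 1.98 and 1.91 CPM in ALB-high cells, 2.86 and 4.04 CPM in ALB-intermediate cells, 5.27 and 6.41 CPM in mesenchymal-like cells and 3.89 and 4.14 CPM in remaining cells, was the gene with the highest fold in mesenchymal-like cells, 0.50 ± 0.16 (SE), adjusted p = 0.0198. That value rests on 140 UMIs against 357, and DESeq2 gave an adjusted p of 0.502. Caldesmon (CALD1), which holds myosin off actin, was -0.63 in ALB-high cells. In mesenchymal-like cells CALD1 did not pass the main edgeR test, at 0.09 (adjusted p = 0.0567). Nor did it pass with DESeq2 (adjusted p = 0.196), without the library block (0.188) or with the limit of 10 (0.107). With the limit of 3 it was called higher there, at 0.22 (adjusted p = 0.0086). It was also called higher with every cell thinned to the same number of UMIs, at 0.16 (adjusted p = 2.45e-04).

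Nonmuscle myosin was lower in ALB-high cells in all 4 genes, against 29.4% of all genes, with the heavy chain ahead of the light chains. That order did not hold with the proliferation limit of 3, where MYH9 was at -0.75 and the light chain MYL12A at -0.78. MYH9 (chr22:36281277-36388067), the heavy chain of nonmuscle myosin IIA, stood at 149 and 156 CPM in ALB-high cells, 197 and 194 CPM in ALB-intermediate cells, 356 and 329.5 CPM in mesenchymal-like cells and 374 and 358 CPM in remaining cells. Its difference was -1.11 ± 0.05 (SE), adjusted p = 1.86e-19 in ALB-high cells and -0.85 ± 0.05 (SE), adjusted p = 2.12e-16 in ALB-intermediate cells against remaining cells, and -0.99 ± 0.05 (SE), adjusted p = 1.05e-17 in ALB-high against mesenchymal-like cells. The essential light chain MYL6 differed by -0.50 in ALB-high cells, and the regulatory light chains MYL12A and MYL12B by -0.74 and -0.48. MYL12A and MYL12B lie 5243 bases apart on chromosome 18 and encode near-identical proteins, and how reads that match both were counted is not given in the sources used here. In mesenchymal-like cells MYL6 was higher, 0.24 ± 0.04 (SE), adjusted p = 1.21e-05, and MYH9 slightly lower, -0.12 ± 0.04 (SE), adjusted p = 0.0347. The MYH9 call turned with the handling of proliferating cells: it was 0.25, adjusted p = 0.0214, with cells at 3 or more proliferation UMIs per 10000 left out.

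TPM4 (chr19:16067021-16103005), a nonmuscle tropomyosin of stress fibres, had the lowest adjusted p of the set in both ALB groups against remaining cells. It stood at 68.6 and 87.5 CPM in ALB-high cells, 161 and 173 CPM in ALB-intermediate cells, 691 and 629 CPM in mesenchymal-like cells and 459 and 463 CPM in remaining cells, averaging 78.1 ± 13.4 CPM in ALB-high cells, 167 ± 8.48 in ALB-intermediate cells, 660.1 ± 43.8 in mesenchymal-like cells and 461 ± 2.70 in remaining cells (SD, n = 2). No 2 groups overlapped, and the order from ALB-high through ALB-intermediate and remaining to mesenchymal-like cells was the same in both libraries. TPM4 was -2.42 ± 0.07 (SE), adjusted p = 3.02e-25 in ALB-high cells (5.37-fold lower), -1.41 ± 0.06 (SE), adjusted p = 1.25e-19 in ALB-intermediate cells and 0.49 ± 0.05 (SE), adjusted p = 2.21e-09 in mesenchymal-like cells. Between ALB-high and mesenchymal-like cells the gap was -2.92 ± 0.07 (SE), adjusted p = 2.88e-27, or 7.56-fold. A TPM4 UMI was found in 60.5% and 50.9% of ALB-high cells and 94.9% and 91.6% of remaining cells.

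The other genes of its role differed less in ALB-high cells. TPM3 was -0.78 in ALB-high cells, but -0.22 (adjusted p = 0.0174) with cells at 3 or more proliferation UMIs per 10000 left out and -0.51 (adjusted p = 2.47e-09) with the limit of 10. In ALB-high cells the nonmuscle calponin CNN2 was -0.84 and transgelin-2 (TAGLN2), the nonmuscle transgelin, -0.84. CNN3, the acidic calponin, differed least of the set between ALB-high and remaining cells, at 100.1 and 94.0 CPM in ALB-high cells, 112 and 108 CPM in ALB-intermediate cells, 118 and 118 CPM in mesenchymal-like cells and 127 and 129 CPM in remaining cells. It was called lower in ALB-high cells, -0.25 ± 0.05 (SE), adjusted p = 5.54e-05, in ALB-intermediate cells, -0.17 ± 0.05 (SE), adjusted p = 0.00333, and in mesenchymal-like cells, -0.15 ± 0.04 (SE), adjusted p = 0.00716. None of these CNN3 calls held with proliferating cells left out. With cells at 10 or more proliferation UMIs per 10000 left out, the values were -0.08 (adjusted p = 0.344), 0.08 (0.431) and -0.01 (0.963) in the same order of groups. With the limit of 3 they were 0.12 (adjusted p = 0.272), 0.41 (0.00189) and 0.06 (0.779), so CNN3 was then called higher in ALB-intermediate cells. CNN2 was higher in mesenchymal-like cells at 0.20 ± 0.04 (SE), adjusted p = 6.39e-04, which DESeq2 did not call (adjusted p = 0.143).

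Counting each family's UMIs as shares removed the overall level and left shifts between relatives. TPM4 made up 14.7 and 17.5% of tropomyosin UMIs in ALB-high cells, 24.05 and 25.03% in ALB-intermediate cells, 39.4 and 38.6% in mesenchymal-like cells and 31.2 and 32.0% in remaining cells. TPM3 ran the other way, at 40.1 and 36.1%, 33.5 and 31.5%, 21.1 and 21.7% and 24.3 and 23.8% in the same order. TPM1 kept between 39.2 and 46.1% in every group and library, and TPM2 never reached 0.6%. The 2 nonmuscle alpha-actinins shifted too: ACTN1 held 24.4 and 25.5% of their UMIs in ALB-high cells, 27.6 and 25.9% in ALB-intermediate cells, 40.0 and 39.3% in mesenchymal-like cells and 34.9 and 36.6% in remaining cells. CNN3 held 66.5 and 67.7% of calponin UMIs in ALB-high cells and 55.2 and 55.4% in remaining cells. By contrast ACTB held between 73.8 and 74.9% of the UMIs of the 3 actin genes in every group and library, so ACTB and ACTG1 differed in step.

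**Figure D3:**
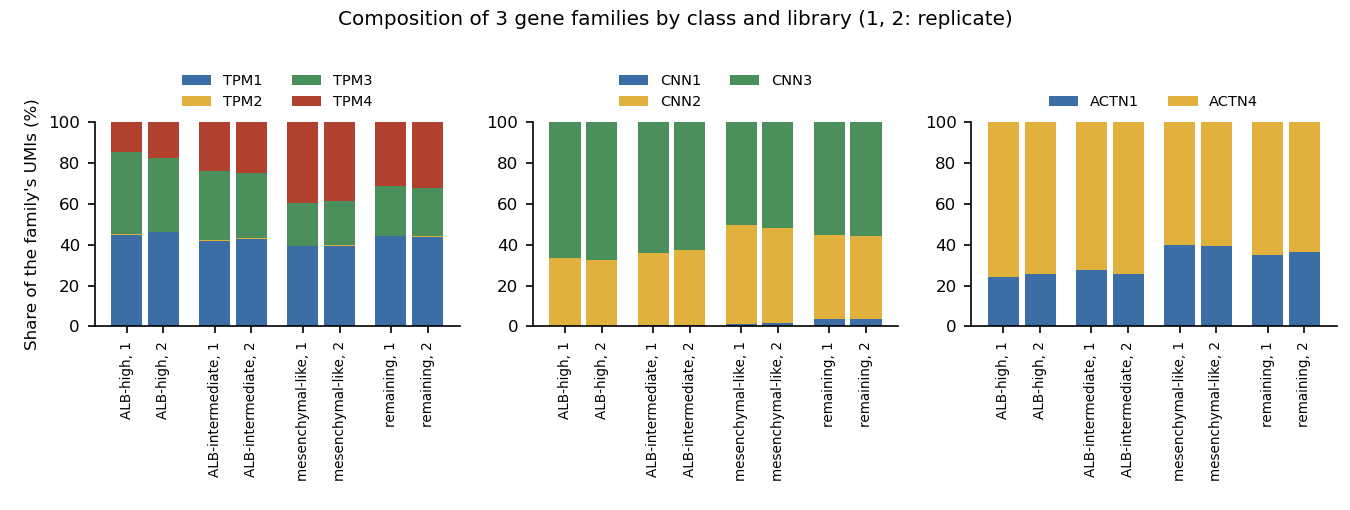
Share of each gene in the UMIs of its family (tropomyosins, calponins, alpha-actinins), in percent, by cell group and library. The TPM4 share is 14.7 and 17.5% in the ALB-high bars and 39.4 and 38.6% in the mesenchymal-like bars, and ACTN1 and CNN2 take larger shares in mesenchymal-like than in ALB-high cells.

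Among the crosslinkers, filamin A (FLNA, chrX:154348524-154374638), which ties filaments into networks and to integrins, differed most. It stood at 24.2 and 30.3 CPM in ALB-high cells, 55.4 and 58.0 CPM in ALB-intermediate cells, 171 and 159.8 CPM in mesenchymal-like cells and 121 and 124 CPM in remaining cells, with no overlap between any groups. FLNA was -2.04 ± 0.07 (SE), adjusted p = 1.03e-21 in ALB-high cells, -1.07 ± 0.06 (SE), adjusted p = 2.80e-16 in ALB-intermediate cells and 0.41 ± 0.04 (SE), adjusted p = 2.94e-09 in mesenchymal-like cells. The gap between ALB-high and mesenchymal-like cells was -2.45 ± 0.08 (SE), adjusted p = 1.23e-23. Alpha-actinin 1 (ACTN1) was -1.18 in ALB-high cells and alpha-actinin 4 (ACTN4) -0.43, or -0.28 (adjusted p = 0.00132) with the proliferation limit of 3, with no call for ACTN4 in mesenchymal-like cells, -0.10 ± 0.04 (SE), adjusted p = 0.0784.

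Of the focal adhesion genes, 4 of 4 were called higher in mesenchymal-like cells, against 12.7% of all genes. In ALB-high and ALB-intermediate cells 4 of 4 were called lower, against 29.4% and 21.2% of all genes. Each comparison was with remaining cells, and some TLN1 and ZYX calls depended on the processing. Vinculin (VCL, chr10:73995193-74121363), recruited to adhesions under tension, stood at 94.0 and 88.6 CPM in ALB-high cells, 145 and 141 CPM in ALB-intermediate cells, 264 and 246 CPM in mesenchymal-like cells and 203 and 196 CPM in remaining cells. It was 0.33 ± 0.04 (SE), adjusted p = 2.32e-07 in mesenchymal-like cells and -0.98 in ALB-high cells. Zyxin (ZYX, chr7:143381080-143391111), which marks mature adhesions and stress fibres, stood at 51.9 and 58.0 CPM in ALB-high cells, 59.2 and 62.1 CPM in ALB-intermediate cells, 106 and 94.9 CPM in mesenchymal-like cells and 82.2 and 79.2 CPM in remaining cells and was 0.30 ± 0.05 (SE), adjusted p = 1.23e-05 in mesenchymal-like cells. Its ALB-high and ALB-intermediate levels nearly met, at -0.41 and -0.37 against remaining cells. Integrin beta 1 (ITGB1), the common partner of the collagen-binding alpha chains, stood at 259.8 and 283 CPM in ALB-high cells, 398 and 392 CPM in ALB-intermediate cells, 889 and 794 CPM in mesenchymal-like cells and 711 and 673 CPM in remaining cells and was -1.20 in ALB-high cells and 0.26 ± 0.04 (SE), adjusted p = 2.10e-05 in mesenchymal-like cells. Talin (TLN1), which switches integrins on, differed by -0.42 in ALB-high cells, -0.18 in ALB-intermediate cells and 0.13 ± 0.04 (SE), adjusted p = 0.0275 in mesenchymal-like cells. Its call in mesenchymal-like cells was lost with DESeq2 (adjusted p = 0.18) and without the library block (adjusted p = 0.0788). Its call in ALB-intermediate cells was lost with cells at 3 or more proliferation UMIs per 10000 left out, at -0.04 (adjusted p = 0.767), and with the limit of 10, at -0.08 (adjusted p = 0.267). The ZYX call in ALB-intermediate cells was lost with the limit of 3, at -0.31 (adjusted p = 0.0514).

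The last role joins membrane and secreted partners of the cortex. Galectin-1 (LGALS1, chr22:37675608-37679806), a secreted sugar-binding protein, stood at 116 and 173 CPM in ALB-high cells, 330.3 and 389 CPM in ALB-intermediate cells, 1027 and 950.2 CPM in mesenchymal-like cells and 902 and 913 CPM in remaining cells. Its ALB-high values differed more between libraries than those of any other gene of the set except CNN1 and MYL9, which were near 0, yet stood far below the other groups. LGALS1 was -2.52 ± 0.08 (SE), adjusted p = 7.42e-24 in ALB-high cells and -1.29 ± 0.07 (SE), adjusted p = 1.06e-16 in ALB-intermediate cells. It did not pass in mesenchymal-like cells, nor with the limit of 10 (adjusted p = 0.0864) or with thinning (0.318). With the limit of 3 it was called higher there, at 0.31 (adjusted p = 0.00541). In ALB-high against mesenchymal-like cells it was -2.62 ± 0.08 (SE), adjusted p = 4.00e-24. Annexin A1 (ANXA1, chr9:73151757-73170393), a calcium-dependent membrane binder, stood at 74.5 and 81.98 CPM in ALB-high cells, 166 and 164 CPM in ALB-intermediate cells, 321 and 314 CPM in mesenchymal-like cells and 341 and 329 CPM in remaining cells. ALB-high cells differed by -1.95 ± 0.05 (SE), adjusted p = 7.17e-25 from remaining cells and by -1.85 ± 0.06 (SE), adjusted p = 9.05e-24 from mesenchymal-like cells.

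Annexin A2 (ANXA2, chr15:60347134-60402883), which binds membrane and actin in a complex with S100A10, stood at 566 and 603 CPM in ALB-high cells, 924 and 881 CPM in ALB-intermediate cells, 1245 and 1266 CPM in mesenchymal-like cells and 1251 and 1256 CPM in remaining cells. It was -0.95 ± 0.04 (SE), adjusted p = 1.36e-20 in ALB-high cells and -0.42 ± 0.04 (SE), adjusted p = 2.63e-11 in ALB-intermediate cells, and its mesenchymal-like and remaining levels overlapped, at -0.02 ± 0.04 (SE), adjusted p = 0.695. ALB-high against mesenchymal-like cells gave -0.93 ± 0.04 (SE), adjusted p = 3.71e-20. S100A10 was -0.63 in ALB-high cells and S100A11 -1.07, and both were called higher in mesenchymal-like cells, by 0.11 and 0.15 (log2), which DESeq2 did not call (adjusted p = 0.107 and 0.118). Caveolin-1 (CAV1), the coat protein of caveolae, was -1.35 in ALB-high cells at 363 and 425 CPM, against 1089 and 1129.7 CPM in remaining cells, and 0.25 ± 0.04 (SE), adjusted p = 9.61e-06 in mesenchymal-like cells.

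Between the ALB groups the decline followed ALB step by step rather than at the boundaries. With all kept cells binned by ALB UMIs per 10000, the 33 genes summed to 20048 and 20136 CPM below 1 (replicates 1 and 2), 15027 and 17021 CPM from 2 to 5, 12375 and 13669 CPM from 10 to 20, 9566 and 10133 CPM from 50 to 100 and 6542 and 7119 CPM at 200 or more. From bin to bin the sum was lower at each step in both libraries, and the smallest bin held 93 cells. TPM4 fell over the same bins to 40.8 and 50.8 CPM in the highest, against 529 and 522 CPM in the lowest, and ACTB to 980.1 and 1114 CPM against 4048 and 4101 CPM. The median mitochondrial share moved with the bins, at 14.1 and 14.8% in the highest and 8.28 and 8.34% in the lowest. With a mitochondrial limit of 15% the median log2 fold change of ALB-high against remaining cells was -0.89 and 32 of 32 genes were still lower.

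**Figure D4:**
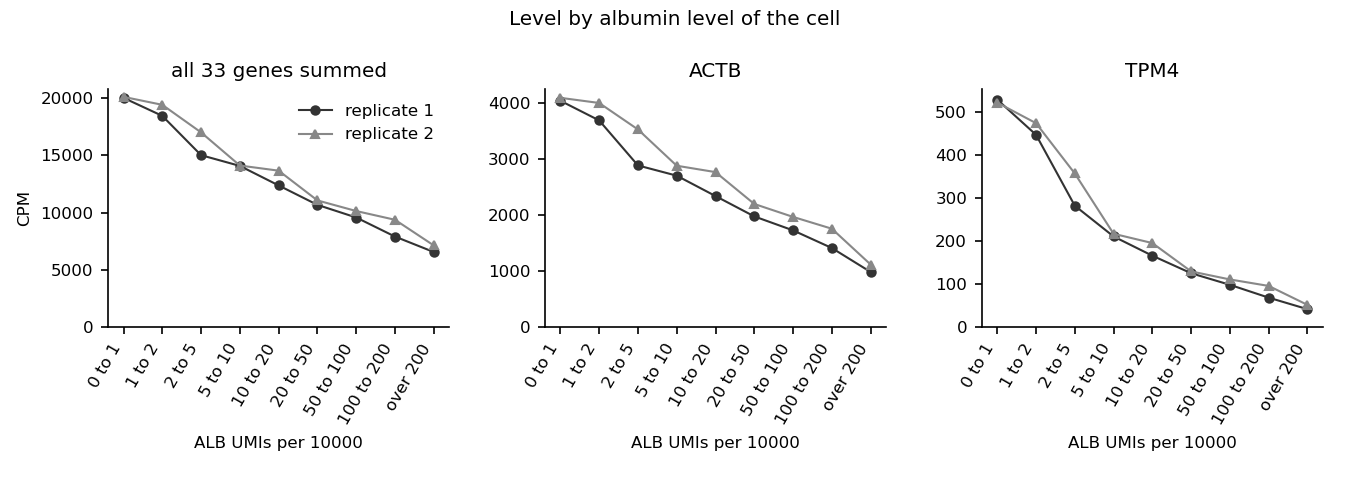
CPM of the 33 genes summed, of ACTB and of TPM4 (vertical axes from 0) in cells binned by ALB UMIs per 10000, with 1 line per library. All 3 measures decline from the lowest to the highest bin, the sum to 6542 and 7119 CPM at the highest ALB against 20048 and 20136 CPM at the lowest.

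Over single cells of 1 group in 1 library, the genes also varied together. This was measured as Pearson r of ln(1 + UMIs per 10000) over the cells, for the 29 genes detected in at least 20% of cells of each group, which leaves out TAGLN, CNN1, TPM2 and MYL9. Cells of a library share its preparation and differ in depth, so r is a description without a test. The median r of the 406 pairs was 0.180 and 0.155 in ALB-high cells (replicates 1 and 2), 0.172 and 0.130 in ALB-intermediate cells, 0.196 and 0.123 in mesenchymal-like cells and 0.225 and 0.169 in remaining cells. Over all gene pairs the median was at most 0.0124. In remaining cells 59.1 and 38.4% of the pairs reached 0.2, against 0.229 and 0.132% of all gene pairs, and 156 pairs did so in both libraries. The deeper library gave the higher values, and with every cell thinned to 3000 UMIs the median in remaining cells was 0.0743 and 0.0703, against 0.000363 and 0.000283 over all gene pairs.

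The pair with the highest r was ACTB with ACTG1, at 0.71 and 0.61 in remaining cells and 0.61 and 0.56 in ALB-high cells. ACTB reached 0.60 and 0.55 with TPM4, 0.57 and 0.56 with TPM1, 0.61 and 0.50 with CFL1 and 0.60 and 0.46 with MYL6 in remaining cells. TPM4, TPM1 and MYL6 belong to other roles than ACTB, while ACTG1 and CFL1 share its role. A further block of high values held the membrane partners, with 0.48 and 0.44 for CAV1 with S100A10 and 0.46 and 0.39 for ANXA2 with LGALS1. It was not separate from the actin genes, as LGALS1 reached 0.48 and 0.47 with ACTB. Its lowest pair was ANXA1 with S100A11, at 0.25 and 0.19. In ALB-high cells pairs of membrane partners came next after the actin pair, with 0.59 and 0.46 for CAV1 with S100A10 and 0.55 and 0.48 for ANXA2 with CAV1. Pairs within a role had a median r of 0.258 in remaining cells and pairs between roles 0.189.

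Each gene was also set against the mean of the other genes, cell by cell. ACTB followed the others most closely in all 4 groups, at 0.73 and 0.68 in ALB-high cells and 0.78 and 0.73 in remaining cells. TPM4 came next in remaining cells, at 0.65 and 0.60, with LGALS1 at 0.62 and 0.60. ACTA2 followed least, at 0.12 and 0.06 in remaining cells and 0.11 and 0.13 in mesenchymal-like cells. It was found in 56.0% and 43.0% of remaining cells. ACTA2 had the lowest level of the 29 genes over all cells, and the part of sparse counts in its low r was not tested. ZYX, TLN1 and VCL, all of higher level than ACTA2, were at 0.37 and 0.29, 0.30 and 0.21 and 0.27 and 0.19 in remaining cells. CNN3 came last in ALB-high cells, at -0.08 and 0.11, where it had a UMI in 82.03% and 68.55% of cells.

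**Figure D5:**
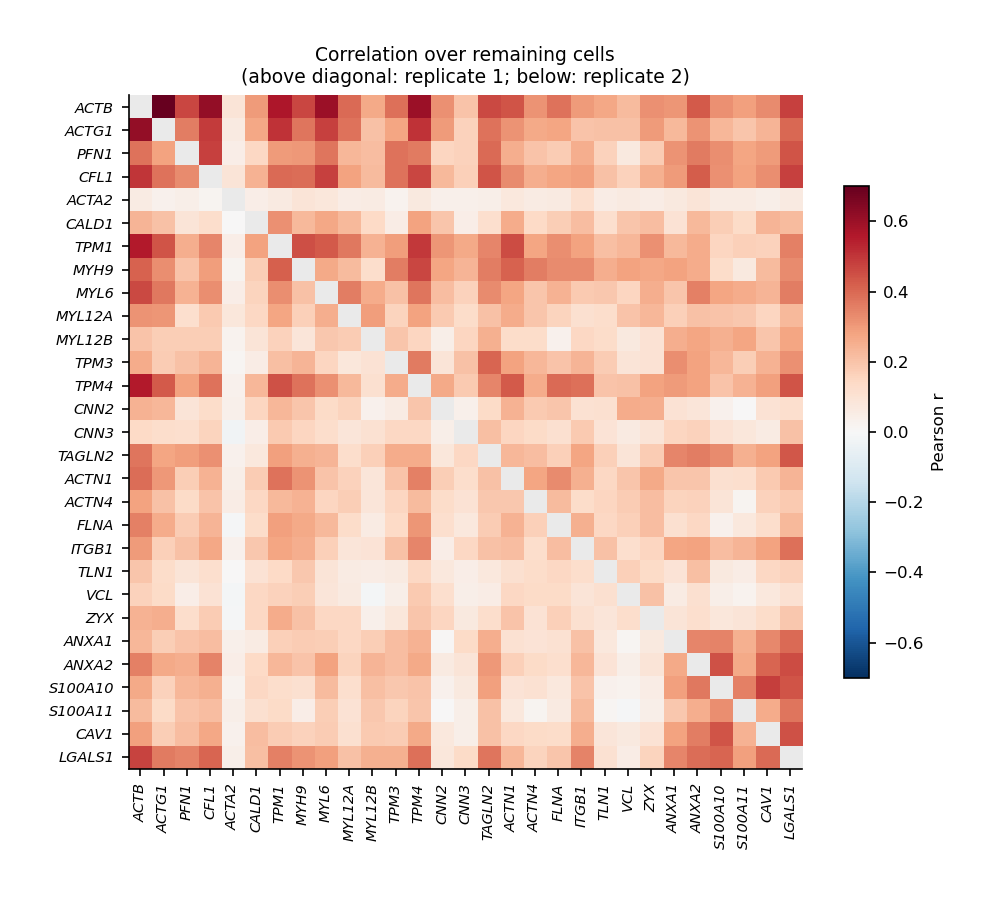
Pearson r of ln(1 + UMIs per 10000) between each pair of the 29 genes over remaining cells, with replicate 1 above the diagonal and replicate 2 below it. ACTB, ACTG1, CFL1, TPM1, MYL6 and TPM4 form one block of high r. The annexin, S100, CAV1 and LGALS1 genes form another at the lower right, though LGALS1 also has 0.48 and 0.47 with ACTB. The ACTA2 row and column stay near 0.

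Other measures of a cell moved with the mean level of the 29 genes, and their part in the correlations was not tested beyond the thinning given above. In remaining cells the mean had r of -0.53 and -0.58 with the mitochondrial share, 0.32 and 0.26 with the log of depth and 0.27 and 0.23 with the proliferation markers. In ALB-high cells these were -0.36 and -0.55, 0.13 and 0.43 and 0.38 and 0.37, and r with ALB itself was -0.48 and -0.41. With the 4 mesenchymal genes of the rule r was at most 0.235 in any group and library.

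Outside the set, the genes whose level over remaining cells was most like the mean of the 29 genes included several cytoskeletal genes. Of 7461 genes detected in at least 20% of those cells, whose median r was 0.0347, the highest was TMSB10 (0.61 and 0.58), a thymosin that binds actin monomers. Keratin KRT8 (0.57 and 0.49) and thymosin TMSB4X (0.54 and 0.51) were also among the 10 highest. GLIPR1, SH3BGRL3, tubulin TUBA1B, keratin KRT19, YWHAZ and the matricellular gene CCN1 were among them too, with mean r over libraries of 0.499 to 0.434.

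A wider list of 93 genes from the pathways around actin was read the same way, with 85 tested. In ALB-high against remaining cells 61 of 85 were lower, against 29.4% of all genes, and 18 higher, against 30.3%. In ALB-intermediate cells 54 were lower and 11 higher, against 21.2% of all genes in each direction. In mesenchymal-like cells 17 were lower, against 13.6% of all genes, and 21 higher, against 12.7%. All 8 subunits of the Arp2/3 complex, which nucleates branched filaments, were lower in ALB-high and in ALB-intermediate cells. ACTR3 showed the largest Arp2/3 difference in ALB-high cells, at 103 and 103 CPM in ALB-high cells, against 202 and 202 CPM in remaining cells. In mesenchymal-like cells 2 of the 8, ARPC5 and ARPC1B, were higher, at 0.17 ± 0.04 and 0.17 ± 0.04 (log2 fold change ± SE).

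Integrin alpha chains were the list with the highest share of calls in mesenchymal-like cells, 6 of 7 higher, against 12.7% of all genes. The fibronectin receptor chain ITGA5 was 0.56 ± 0.05 there (adjusted p = 3.69e-11), and the collagen-binding chains ITGA11 and ITGA1 were 0.56 ± 0.07 and 0.49 ± 0.08. In ALB-high cells 5 of 7 were lower, against 29.4% of all genes, led by ITGA3 at -1.64 ± 0.07, and 2 higher, against 30.3%. ITGA1 was higher at 1.15 ± 0.09 (adjusted p = 1.70e-13), with 45.8 and 37.9 CPM in ALB-high cells, against 20.9 and 21.5 CPM in remaining cells. Of 15 other focal adhesion genes tested, 11 were lower and 4 higher in ALB-high cells, against 29.4% and 30.3% of all genes. Tensin 1 (TNS1), which links integrins to actin, was higher at 2.16 ± 0.08, with 65.3 and 62.7 CPM in ALB-high cells, against 15.6 and 16.3 CPM in remaining cells, whereas PDLIM7 was lower at -1.77 ± 0.11. Of the other myosins and filamins, the nonmuscle myosin heavy chain MYH14 was higher in ALB-high cells at 1.76 ± 0.10, with 35.3 and 31.0 CPM in ALB-high cells, against 11.2 and 10.6 CPM in remaining cells, while MYH9 of the set was lower.

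Genes on the lists around SRF and around YAP and TEAD were called in both directions. Values for YAP and the TEAD factors themselves are not reported here. Of 13 genes of the YAP and TEAD axis, 8 were lower in ALB-high cells, against 29.4% of all genes, and 3 higher, against 30.3%. AXL was at -1.70 ± 0.08, CCN1 at -1.63 ± 0.08 and ANKRD1 at -1.30 ± 0.06. In mesenchymal-like cells, where the focal adhesion genes were higher, 6 of the 13 were lower, against 13.6% of all genes. There 1 was higher, against 12.7%, and CRIM1 was at -0.42 ± 0.05 and AJUBA at -0.42 ± 0.06. Of 5 tested genes around SRF, the coactivator MRTFA was lower in ALB-high cells at -0.91 ± 0.05, with 69.9 and 77.5 CPM in ALB-high cells, against 152 and 152 CPM in remaining cells. Its relative MRTFB was higher at 0.32 ± 0.06, and FHL2, an SRF-binding LIM protein, lower at -1.32 ± 0.07. TMSB10, the monomer-binding thymosin named above, was -1.20 ± 0.04, and all 3 tested membrane linkers (EZR, MSN and RDX) were lower, at -0.66 ± 0.05, -0.58 ± 0.05 and -0.57 ± 0.05.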

How the data were processed

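The authors deposited UMI counts of each gene in each barcode, made with Cell Ranger 7.0.0, per the file headers. The submitters' processing notes name STAR and GRCh38; the annotation release is not given in the sources used here. The 12 antibody features held 0 UMIs and were not used. Barcodes with at least 500 genes, 1000 UMIs and at most 25% mitochondrial UMIs were kept. Scrublet marked 4 and 0 barcodes, so doublets were in effect not removed, and leaving out the top 4% of scores was tried instead. Groups were assigned in the order ALB-high, ALB-intermediate, mesenchymal-like, remaining; 2 and 12 ALB-high cells and 24 and 37 ALB-intermediate cells also met the mesenchymal rule.

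CPM, percentages and counts per 10000 UMIs were computed here from the deposited counts. UMIs were summed per group and library (8 sums) and tested with edgeR 4.0.16 (R 4.3.3; quasi-likelihood test, filterByExpr, TMM, library as a block because every group was measured in the same library), with Benjamini-Hochberg adjustment over 16583 genes and calls below 0.05. Counts of calls leave out the 5 genes that define groups. DESeq2 1.42.0 was an alternative. Counts for ALB-high against remaining cells were simulated over 16583 genes. The test recovered 23, 43, 49 and 50 of 50 genes changed 1.25, 1.5, 2 and 4-fold, with 13 false calls. Only 50 genes were changed at each fold, against 5016 genes called higher and 4867 lower in the data. Recovery and false calls with so many changed genes were not tested. Correlations used numpy 2.4.6. Gene positions are from GENCODE 29 (GRCh38).

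The genes, lists and tests were chosen with earlier results of these data known. The text gives full values for the 6 called genes with the largest absolute log2 fold change in each direction per comparison, plus ACTB, ACTG1, ANXA2 and MYH9, for pathway genes chosen among the 3 such of each list, and for genes among the 10 most like the set; some items under these rules are not reported here. Alternatives were another normalization, no filter on low counts, no library block, other group limits and orders, thinning to 3000 UMIs, a 15% mitochondrial limit, dividing cells left out, and each library left out. A proliferation limit of 10 per 10000 and leaving out mitochondrial genes were added after seeing the data.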

Additional observations from a re-analysis of the deposited data

How the results depend on the processing

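Over the alternatives 30 to 32 genes were called lower in ALB-high than in remaining cells, 24 to 31 in ALB-intermediate cells (24 with dividing cells left out, where CNN3 was called higher, at 0.405 with an adjusted p of 0.00189), and 29 to 32 in ALB-high than in mesenchymal-like cells. Without the library block these counts were 32, 31 and 31. In mesenchymal-like against remaining cells, the fit without the replicate block called 10 higher and 2 lower in place of 15 and 3. DESeq2 called 8 higher and 1 lower, 5 were lower with no filter on low counts, and 0 were lower with dividing cells (3 or more proliferation UMIs per 10000) left out or with the added limit of 10. Leaving out dividing cells also left fewer cells, and it gave positive values for CNN3 (0.061, adjusted p = 0.779), MYH9 (0.25, adjusted p = 0.0214) and ANXA2 (0.13, adjusted p = 0.118); ANXA2 was also 0.0037 with thinning (adjusted p = 0.963) and 0.036 with the added limit (adjusted p = 0.66). The cause was not tested.

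Median log2 fold changes moved by more than the spread between libraries in these cases. In ALB-high against remaining cells the median was -1.03 with no filter, -1.07 with ALB-high set at 100 per 10000, -1.02 without the top 4% of Scrublet scores, -0.89 with the 15% mitochondrial limit, -0.94 without dividing cells, -1.01 with the added limit, and -1.13 to -1.10 with 1 library left out. In ALB-intermediate against remaining cells it was -0.54 with no filter, -0.52 with mesenchymal-like cells assigned first, -0.51 without cells meeting both rules, -0.56 with the limit of 100, -0.59 with thinning, -0.53 without the top Scrublet scores, -0.45 without dividing cells, and -0.56 to -0.55 with 1 library left out. In mesenchymal-like against remaining cells it was 0.0591 with no filter, 0.26 without dividing cells, 0.18 with the added limit, and 0.10 to 0.15 with 1 library left out. In ALB-high against mesenchymal-like cells it was -1.07 with no filter, -1.03 with mesenchymal-like cells assigned first, -1.18 with a top 10% rule, -1.14 with the limit of 100, -1.09 with thinning, -1.12 without the top Scrublet scores, -0.999 with the 15% limit, -1.14 without dividing cells, -1.20 with the added limit, -1.06 without mitochondrial genes, and -1.27 to -1.25 with 1 library left out. With 1 library left out there is no test, and these values are ratios of plain CPM, which carry the shift of all genes given above (-0.15 in ALB-high against remaining cells).

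The median r of pairs was 0.0554, 0.057, 0.0656 and 0.0723 in ALB-high, ALB-intermediate, mesenchymal-like and remaining cells with thinning, and 0.137 in ALB-high cells without dividing cells. Summed CPM without mitochondrial UMIs was 9802, 14026, 23059 and 21110 in the same order of groups. Of 668 values of single genes under an alternative, 593 were classed as the same. Of the others, 24 lost and 3 gained the call, 43 untested ones moved by more than the spread and 5 changed sign. Over all genes, calls in mesenchymal-like cells were 758 higher and 656 lower with DESeq2, against 2102 and 2256 with edgeR; in ALB-intermediate cells 1183 and 889 without dividing cells, against 3509 and 3514; and in ALB-high cells 2743 and 2490 with thinning, against 5016 and 4867. Depth limits CNN1, TAGLN and TPM2, with 3, 16 and 25 UMIs in ALB-high cells, and MYL9, with 10 UMIs in all.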

Other observations

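Within each group, the genes least like the set over single cells were mostly secreted hepatocyte products and mitochondrial transcripts. In ALB-high cells the lowest r with the mean of the 29 genes belonged to FGG (-0.61 and -0.45 in replicates 1 and 2), APOB (-0.58 and -0.44), FGB (-0.59 and -0.42) and FGA (-0.59 and -0.39), which encode fibrinogen chains and apolipoprotein B, and to the acute-phase gene ORM1 (-0.53 and -0.39). Remaining cells, which by rule have little ALB, gave ORM1 (-0.54 and -0.53), the carboxylesterase CES1 (-0.47 and -0.49) and APOB (-0.45 and -0.48) the lowest values. In mesenchymal-like cells 4 of the 5 lowest were mitochondrial, with MT-CO3 at -0.44 and -0.47. These are descriptions over cells that share a library and differ in depth.

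The genes most like the set differed in part between groups. TMSB10 came first in all 4, at 0.69 and 0.63 in ALB-high cells, 0.67 and 0.56 in ALB-intermediate cells, 0.64 and 0.55 in mesenchymal-like cells and 0.61 and 0.58 in remaining cells. In ALB-high cells the calcium-binding gene S100A2 followed (0.60 and 0.62), and 4 of the 10 encoded ribosomal proteins (RPS19, RPL15, RPS3 and RPS15). In mesenchymal-like cells POSTN, the matrix protein periostin, was among the 10 (0.36 and 0.43), with the focal adhesion gene PDLIM7 (0.42 and 0.37). Some genes of the set are neighbours: S100A10 and S100A11 lie 38116 bases apart on chromosome 1, and TPM2 and TLN1 6827 bases apart on chromosome 9.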
